A study of Mus musculus with 55 samples.

Results

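The genes described here are those of the constitutive proteasome, the protein-degrading machine that every cell uses for proteins tagged with ubiquitin. They were chosen by name: every probe set whose array annotation gave a symbol starting with Psma, Psmb, Psmc or Psmd, except the inducible immunoproteasome subunits Psmb8, Psmb9 and Psmb10. The rule found 31 genes among 6137 genes with a probe set of a single symbol, read by 41 of 13069 probe sets. Of the 31, 12 encode the core particle, 16 the regulatory particle and 2 (Psmd5 and Psmd9) chaperones that assemble its base. The remaining one, Psmc3ip, shares a name stem but encodes a partner of meiotic recombination and no subunit, so it is counted apart. The brightest probe set stands for a gene: 21 genes had 1 and 10 had 2.

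The core particle is a barrel of stacked rings, in which alpha subunits (Psma) form the outer rings and gate the entrance and beta subunits (Psmb) form the inner rings with the catalytic sites. The regulatory particle caps the barrel. Its ATPases (Psmc) unfold substrates and push them in, and its non-ATPase subunits (Psmd) bind ubiquitin, remove it and hold the cap together. Proteasomes clear cell cycle regulators in dividing cells, and in lymphocytes they also supply peptides for MHC class I.

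Total RNA from mouse bone marrow cells was hybridised to 2 Affymetrix array sets, a first one and one labelled b, whose probe sets differ. Cells had been sorted into 5 populations that follow one another in B cell development. The gate for pre-BI cells was B220+ c-kit+. That for pre-BII cells was B220+ CD25+ sIg-, and size separated the large from the small ones. The gates for immature and mature B cells were B220low sIgM+ and B220hi sIgM+. Pre-BI cells had 6 preparations, from sorts 1, 2, 3, 8, 9 and 10, and every other population had 5. Those of large pre-BII cells came from sorts 1, 2, 8, 9 and 10, while small pre-BII cells had sort 3 in place of sort 2. Immature B cells came from sorts 1, 2, 8, 9 and 11, while mature B cells had sort 3 in place of sort 2. Strain, age and the animals behind a sort are not given in the sources used here. The p-values therefore measure the spread between preparations, which may be partly technical.

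Values are normalised intensities on a linear scale, and levels of different probe sets are not set against each other. A noise limit, taken from the negative values, was 251 for the first set and 319 for the other. "Rose", "fell" and "changed" are kept for an adjusted p under 0.05 in limma, fitted over all 10229 tested probe sets. Of the members, 24 were read by the first set and 7 by the other, and 29 were bright enough to be tested. The ATPase genes Psmc2 and Psmc6 exceeded the noise limit in 0 of 26 preparations and have no further value here. For 5 members the brightest probe set is of a kind designed against a family of like sequences (Psma2, Psma3, Psma5, Psmb1 and Psmc3), so related transcripts may share its signal. Summed levels of 6 B lineage marker genes (negative values taken as 0) ranged from 5180 to 14502 in pre-BI and from 24753 to 30892 in mature B cells. The 3′ to 5′ signal ratios of the GAPDH control, a sign of RNA quality, overlapped between pre-BI (2.44 to 9.35 on the first set) and mature B cells (2.10 to 5.75). Between them they ran from 2.85 to 6.0 in large pre-BII, from 1.82 to 17.41 in small pre-BII (sorts 8 and 9 at 17.41 and 12.32) and from 3.21 to 13.44 in immature B cells (sort 2 at 13.44). The part of RNA quality in the steps into and out of small pre-BII and immature B cells was not tested. An 18S ribosomal RNA control stood higher on first-set arrays of sorts 1 to 3 (156 to 18619) than of sorts 8 to 11 (-224 to 68), so values within each of these sort ranges are given for the main results.

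Promoters are shown because members of one particle can be compared there by a feature that the rule did not use. RefSeq promoters (build GRCm38.p6) were at hand for 25 of the 31 genes. In the 250 bases before the start, the motif CCGGAAG, known as a core of ETS factor binding sites, was searched on both strands. It was present for 8 of 13 regulatory particle genes (61.5%) and 1 of 9 core particle genes (11.1%). Among 4018 genes tested on the arrays the share was 14.6%, and among 27025 genes with a promoter 7.83%. Psmc4, Psmc5, Psmd1, Psmd8 and Psmd14 had no match. The 13 regulatory particle genes include Psmc2 and Psmc6, both with a match but not tested, while the 4018 are tested genes only. The last 100 bases before the start are given for 5 regulatory particle genes with a match (capitals) and for the catalytic core gene Psmb6, whose capitals mark its match to TGACNNNGC.
Psmc1, chr12:100110102-100110201, plus strand: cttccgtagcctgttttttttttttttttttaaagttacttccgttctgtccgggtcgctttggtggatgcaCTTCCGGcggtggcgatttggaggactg
Psmd2, chr16:20651552-20651651, plus strand: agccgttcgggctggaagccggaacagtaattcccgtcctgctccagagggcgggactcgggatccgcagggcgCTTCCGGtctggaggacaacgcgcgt
Psmd6, chr14:14120946-14121045, minus strand: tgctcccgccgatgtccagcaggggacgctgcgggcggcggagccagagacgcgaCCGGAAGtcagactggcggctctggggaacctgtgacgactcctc
Psmd11, chr11:80428515-80428614, plus strand: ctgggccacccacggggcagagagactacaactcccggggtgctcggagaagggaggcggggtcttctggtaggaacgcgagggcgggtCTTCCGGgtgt
Psmd12, chr11:107479428-107479527, plus strand: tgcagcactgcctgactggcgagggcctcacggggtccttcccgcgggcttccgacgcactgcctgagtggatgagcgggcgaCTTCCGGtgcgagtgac
Psmb6, chr11:70525257-70525356, plus strand: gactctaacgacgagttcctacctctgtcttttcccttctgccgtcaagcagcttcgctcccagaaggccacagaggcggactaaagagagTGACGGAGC
In these 5 regulatory particle genes the match lay within 45 bases of the start: 28 bases before it in Psmc1, 26 in Psmd2, 45 in Psmd6, 11 in Psmd11 and 17 in Psmd12. It lay further out in Psmc6 (100 bases) and Psmd4 (125). In Psmc2 the match lay 84 bases before one of its 2 listed starts and 24 before the other. The core gene with a match was Psma6 (132 bases, at one of its 2 starts). TGACNNNGC, the core of the antioxidant response element, was found in 1 of 9 core and 2 of 13 regulatory particle promoters, against 14.4% of the genes tested on the arrays. CCAAT, the NF-Y motif, was found in 5 of 9 and 4 of 13, against 40.6%, and the E2F motif GGCGGGAA in 0 of 9 and 1 of 13, against 3.56%. Of the regulatory particle genes that fell in mature B cells, Psmc1 carries the ETS motif, while Psmd1, Psmd8 and Psmd14 do not. Psmd2, which did not pass in any comparison, carries it. A match is a description of the sequence and shows no binding.

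Across the 5 populations, proteasome genes mostly had their highest means in pre-BI and pre-BII cells (Psmc5, highest in immature B cells, excepted) and their lowest in mature B cells. Mature B cells held the lowest mean in 11 of 12 core genes and in 10 of 14 tested regulatory genes, and the highest mean in 0 of either. How often mature B cells hold the lowest mean over all tested probe sets was not counted, so these counts have no background beside them. In the moderated F test, 8 of the 26 tested subunit genes changed over the 5 populations, and 14.8% of all tested probe sets did so. The 8 were Psma2, Psmb6 and Psmb7 of the core particle and Psmc1, Psmc3, Psmd1, Psmd8 and Psmd14 of the regulatory particle. When each of the 26 preparations was left out in turn, Psmb7 was lost in 18 fits, Psma2 in 2 (mature B sorts 3 and 11), Psmc3 in 2 (large pre-BII sorts 8 and 9) and the other 5 in 0. Within sorts 1 to 3 none of the 8 passed. In such bulk preparations, fewer cells with a transcript and less of it per cell cannot be told apart.

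**Figure D1:**
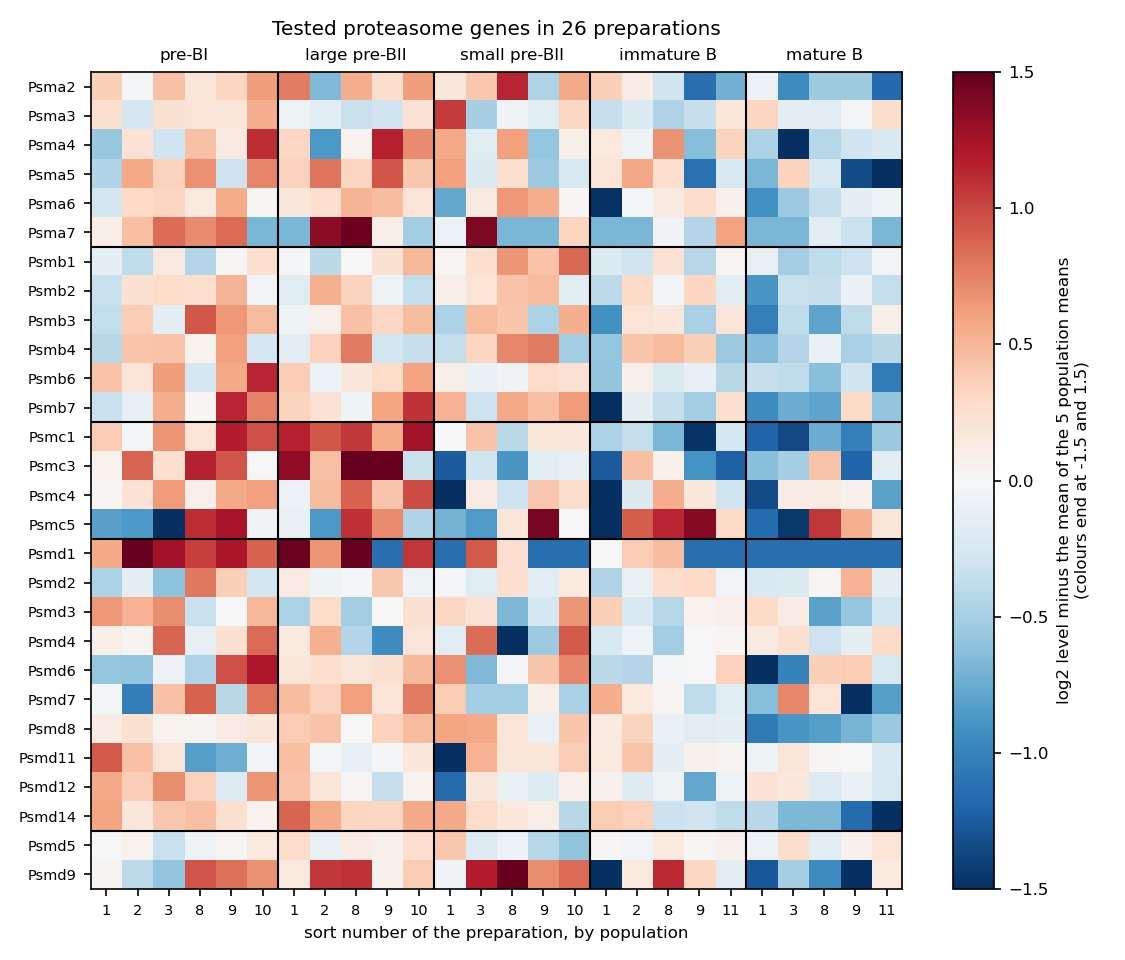
Log2 level of the 28 tested proteasome genes (rows, by particle) in 26 preparations (columns, by population and sort), minus the mean of the 5 population means, with values under the floor raised to it. The mature B columns are mostly blue (low) in both particles, and rows such as Psmd2 and Psmd5 show little colour throughout.

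The 2 particles are summarised by the mean of the centred log2 levels of their genes in each preparation, a value without a test. For the core particle (12 genes) it was 0.23 ± 0.21 (SD, n = 6) in pre-BI, 0.23 ± 0.12 (n = 5) in large pre-BII, 0.18 ± 0.14 (n = 5) in small pre-BII, -0.18 ± 0.27 (n = 5) in immature and -0.47 ± 0.09 (n = 5) in mature B cells. The 3 earliest populations overlapped one another, and all 5 mature preparations (-0.55 to -0.33) lay below all 16 preparations of those populations (-0.15 to 0.44). For the regulatory particle (14 genes) it was 0.27 ± 0.14 (n = 6), 0.35 ± 0.12 (n = 5), -0.08 ± 0.22 (n = 5), -0.13 ± 0.18 (n = 5) and -0.42 ± 0.16 (n = 5) in the same order. Here the small pre-BII preparations (-0.39 to 0.11) already lay below every large pre-BII preparation (0.17 to 0.47). The largest differences of single genes in that step were those of Psmc3 (-1.52) and Psmd1 (-1.21). Both genes were dim, above the noise limit in 9 and 12 of 26 preparations, so the size of their differences depends on how dim values are treated. Their part in the particle mean was not tested. Whether the 2 particles differ in the step at which they drop was not tested either.

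**Figure D2:**
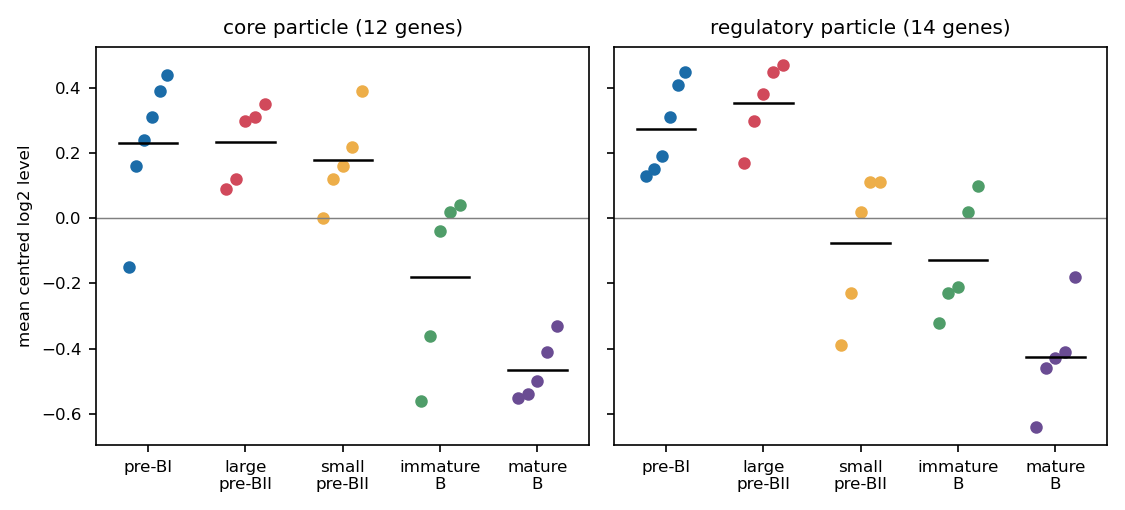
Mean centred log2 level of the tested core and regulatory particle genes in each preparation (points) and its mean per population (bars); the vertical axis is in log2 units. The core particle mean is 0.18 for small pre-BII, -0.18 for immature B and -0.47 for mature B cells. Its immature points split: sorts 1 and 9 lie at -0.56 and -0.36. Sorts 2, 8 and 11 (0.02, 0.04 and -0.04) lie within or just under the small pre-BII range (0 to 0.39). The regulatory particle mean is 0.35 for large pre-BII and -0.08 for small pre-BII cells. It is -0.13 for immature B and -0.42 for mature B cells, so both particles are lower in mature than in immature B cells.

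The comparison of the ends of the series, mature B against pre-BI cells, held most of the changes. Of the 26 tested subunit genes, 7 fell (26.9%) and 0 rose; among all tested probe sets, 10.8% changed and 6.03% fell. The 7 were Psma2, Psmb3 and Psmb6 of the core particle and Psmc1, Psmd1, Psmd8 and Psmd14 of the regulatory particle. The log2 difference was below 0 in 12 of 12 core genes (median -0.82, range -1.0 to -0.14) and in 12 of 14 regulatory genes (median -0.57, range -2.23 to 0.20), while its median over all tested probe sets was 0.04 and 47.2% of them were below 0. Within sorts 1 to 3 alone, with 2 mature and 3 pre-BI preparations, 0 of the 26 passed and the medians were -0.73 and -0.68. Within sorts 8 to 11, 7 fell (Psma2, Psma5, Psmb3, Psmb6, Psmc1, Psmd1 and Psmd14) and the medians were -0.78 and -0.62. On the values as deposited, without scaling between arrays, 3 of the 26 passed (Psma2, Psmd1 and Psmd14) and the medians were -0.60 and -0.36.

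**Figure D3:**
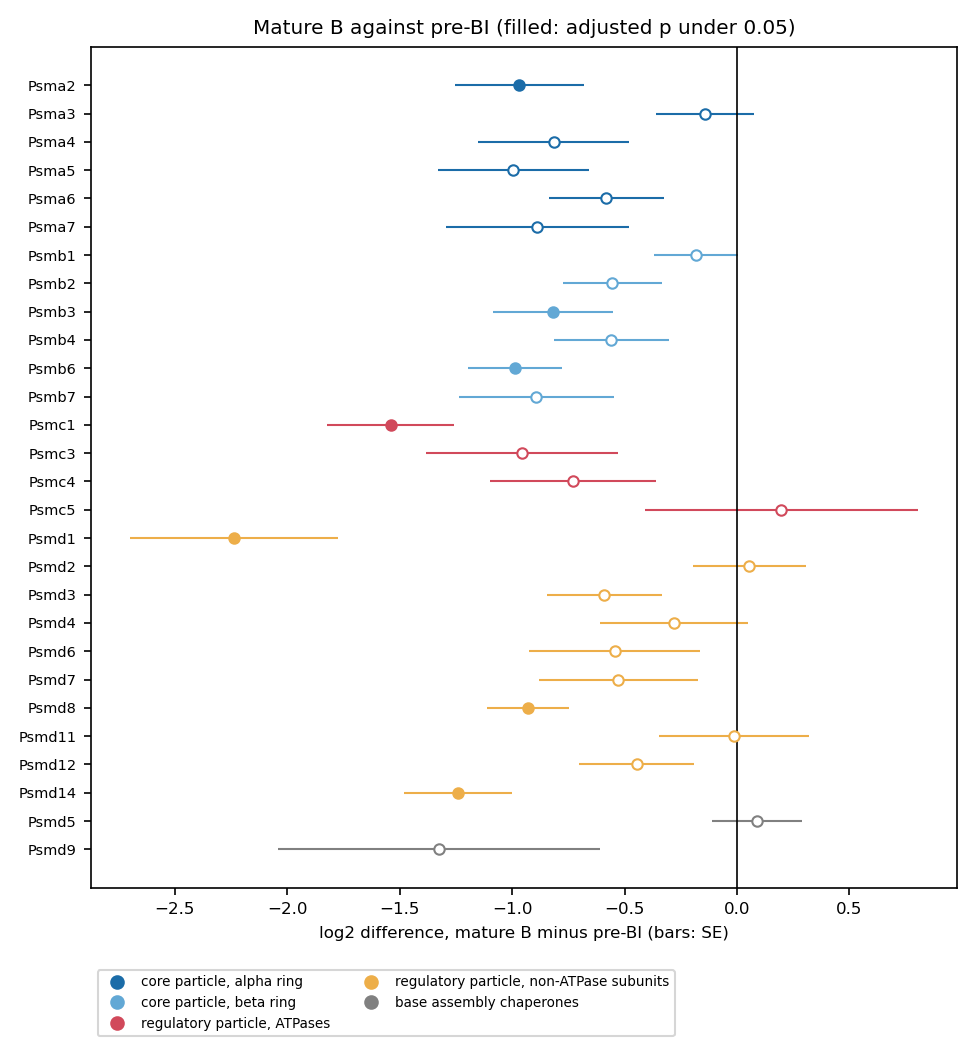
Log2 difference of mature B minus pre-BI cells with its SE for the 28 tested proteasome genes, coloured by subgroup; filled points passed an adjusted p of 0.05. All core particle points lie left of 0, from -1.0 (Psma5) to -0.14 (Psma3), and Psmd1, at -2.23, lies furthest left.

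Other transcripts moved between the same populations. All 14 tested proliferation genes fell from pre-BI to mature B cells (median log2 difference -3.72). T and NK cell markers (7 of the 9 listed genes) summed to 1424 to 3388 in pre-BI and 249 to 644 in mature B cells. Of these, Gzma fell from a mean of 1333 to 136 and Thy1 from 302 to -114 (limma adjusted p = 2.05e-07 and 4.52e-07), while the T cell gene Cd3e was near 0 in both (means 3.9 and -13.6). Granulocyte and monocyte markers (12 of 12 listed genes) summed to 6042 to 19652 in pre-BI and 7412 to 11425 in mature B cells, ranges that overlap. Among them the neutrophil protease gene Prtn3 rose from a mean of 76.9 to 417 (log2 difference 1.79, SE 0.36, limma adjusted p = 0.000493), while the lysozyme gene Lyz2, with means of 5503 and 3700, did not pass (adjusted p = 0.203). Csf1r, Csf3r and Ctsg had means below 0 in both. Erythroid markers (5 of the 8 listed genes) summed to 7455 to 16330 in pre-BI and 11434 to 16634 in mature B cells, ranges that overlap. The brightest of them, the globin gene Hba-a1, had means of 10499 and 11208 and did not pass (limma adjusted p = 0.854). The part of other cells or of proliferation in the proteasome results was not tested.

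Among the catalytic subunits, Psmb6, which carries the caspase-like site of the beta ring, was highest in pre-BI cells (lowest 2199, median 3741, highest 5829). Its mature B preparations read 2093, 2043, 1712, 2153 and 1279 (sorts 1, 3, 8, 9 and 11). All 5 lay below the lowest pre-BI preparation, and immature B cells (1759 to 2792) bridged the ranges. The fall was 1.98-fold (log2 difference -0.99, SE 0.21, limma adjusted p = 0.000933). None of the 4 consecutive steps passed for this gene: their log2 differences, from -0.18 to -0.34, were all below 0.

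Psmb7, which carries the trypsin-like site, changed over the 5 populations (F test, limma adjusted p = 0.046) but passed in none of the 5 pairwise comparisons. The F test call lay at the threshold: it was lost without any one of pre-BI sorts 3, 9 and 10, large pre-BII sorts 1, 2, 9 and 10, small pre-BII sorts 1, 8, 9 and 10, immature B sorts 1, 8 and 9 and mature B sorts 1, 3, 8 and 11 (adjusted p up to 0.0872), and in 7 of 14 other settings. Pre-BI preparations ran from 734 to 2050.1 with a median of 1145, large pre-BII from 884 to 1969 and small pre-BII from 746 to 1440.4. Immature preparations read 204, 843, 725, 644 and 1092, and mature ones 482, 551, 534, 1131 and 616. The later populations were thus mostly lower, with overlap: mature sort 9 stood within the pre-BI range. The difference between mature B and pre-BI cells was -0.89 (SE 0.34, adjusted p = 0.105). Psmb5, the chymotrypsin-like subunit, was not analysed here.

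Of the structural core subunits, the alpha ring gene Psma2 had pre-BI values of 1560 to 2446 (median 2009). Mature preparations read 1497, 827, 1093, 1096 and 708, all below the pre-BI range. It fell 1.96-fold (log2 difference -0.97, SE 0.29, limma adjusted p = 0.0237), and its second probe set fell too (-1.30, adjusted p = 0.00112). Both probe sets are of the family kind and lie on the b set, so related transcripts may share the signal of either. The call on the brightest probe set was lost without mature B sort 11 (adjusted p = 0.0871), mature B sort 3 (0.0649) or pre-BI sort 10 (0.056). It was also lost within sorts 1 to 3 (log2 difference -0.77, adjusted p = 0.482) and with eBayes without a trend (0.0774).

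The beta ring gene Psmb3 read 1563 to 3836 in pre-BI cells (median 2702) and 991, 1546, 1161, 1546 and 2138 in mature B cells. The ranges overlapped through mature sort 11 (2138), which stood above pre-BI sorts 1 and 3; the other mature preparations lay below all pre-BI preparations. It fell 1.76-fold (log2 difference -0.82, SE 0.27, limma adjusted p = 0.042; second probe set -1.23, adjusted p = 0.0438). This call lay close to the threshold and was lost without pre-BI sorts 2 (adjusted p = 0.0666), 8 (0.116), 9 (0.0987) or 10 (0.0786), and without mature B sorts 1 (0.142), 3 (0.0579), 8 (0.109) or 9 (0.0606). It was also lost in 7 of 15 other settings.

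The remaining 8 core genes did not pass in any comparison with their brightest probe set. The largest of their differences between mature B and pre-BI cells was that of the alpha ring gene Psma5 (-1.0, SE 0.34, adjusted p = 0.0531), with pre-BI values of 694 to 1582 and mature values of 285 to 1207. The smallest was that of Psma3 (-0.14, SE 0.22, adjusted p = 0.822), with pre-BI values of 1989 to 3432 and mature values of 2091 to 2944. The 2 probe sets of Psma4, a gene singled out after its values were seen, both had differences below 0, and 1 of them passed. The brightest did not pass (-0.82, adjusted p = 0.143) and the dimmer one, of the family kind, fell (-1.21, adjusted p = 0.00761). Psma7 exceeded the noise limit in 5 of 26 preparations, and in 0 of the 5 mature ones.

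In the regulatory particle, the ATPase gene Psmc1 showed the smallest F test p-value of all members (limma adjusted p = 8.63e-06). Large pre-BII preparations read 1300.1, 1105, 1213, 852 and 1375 (sorts 1, 2, 8, 9 and 10), above small pre-BII preparations at 582, 779.8, 438, 659 and 654. The large and small pre-BII ranges did not overlap, although the step did not pass (log2 difference -0.92, SE 0.29, limma adjusted p = 0.0679). Pre-BI cells ranged from 572 to 1319.7 (median 838), immature B cells from 210.2 to 484, and mature preparations read 254, 227, 346, 285 and 395. All mature preparations lay below all pre-BI preparations, a fall of 2.85-fold (log2 difference -1.54, SE 0.28, limma adjusted p = 0.00015).

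Psmc3, another ATPase of the ring, was the one subunit gene that fell from large to small pre-BII cells, a comparison in which 5.3% of all tested probe sets changed. Large pre-BII preparations read 523, 282, 686, 694 and 165, and small ones 76.8, 169, 114, 185 and 192, every one of them under the noise limit. Large sort 10, at 165, lay within the small pre-BII range. The fall was at least 1.77-fold (log2 difference -1.52, SE 0.45, limma adjusted p = 0.0385). It was lost without large pre-BII sorts 1 (adjusted p = 0.0941), 8 (0.124) or 9 (0.113) and without small pre-BII sorts 1 (0.105), 3 (0.0538) or 8 (0.0871). Within sorts 1 to 3 and within sorts 8 to 11 it did not pass (-1.66, adjusted p = 0.466, and -1.42, adjusted p = 0.268). With values floored at the noise limit it was -0.83 (adjusted p = 0.00924).

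The 4 tested ATPase genes (Psmc1, Psmc3, Psmc4 and Psmc5) had differences above 0 from pre-BI to large pre-BII cells (median 0.43) and below 0 from large to small pre-BII cells (median -0.83), against 0.00 and 0.06 over all tested probe sets. The second of these medians spans Psmc3 at -1.52 and Psmc5 at -0.06. Psmc5 also had the highest difference of all subunits between mature B and pre-BI cells (log2 0.20, SE 0.61, adjusted p = 0.93), with values spread from 118 to 1866 in pre-BI and from 292 to 1673 in mature B cells. All 14 proliferation genes fell in the step from large to small pre-BII cells as well (median -2.77); their part in the ATPase values was not tested.

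Psmd14, the deubiquitinating enzyme that strips ubiquitin from a substrate as it enters, read 971 to 1414 in pre-BI cells (median 1169.5) and 1157 to 1712 in large pre-BII cells. Immature preparations read 1218, 1192, 749, 757 and 715, and mature ones 699.8, 587, 583, 419 and 289. The mature values lay below every preparation of pre-BI, large pre-BII and immature B cells; small pre-BII sort 10, at 699, overlapped them. It fell 2.32-fold from pre-BI to mature B cells (log2 difference -1.24, SE 0.24, limma adjusted p = 0.000405).

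Psmd8, a subunit of the lid, was the one subunit gene that fell from immature to mature B cells, a comparison in which 1.35% of all tested probe sets changed. Pre-BI preparations held close together at 1670.4 to 1902 (median 1757), and immature preparations read 1778, 2031, 1509, 1455 and 1461. Mature preparations read 774, 884, 909, 998 and 1100.3, below every preparation of every other population. The fall from immature cells was 1.76-fold (log2 difference -0.82, SE 0.19, limma adjusted p = 0.0163), and that from pre-BI cells 1.90-fold (-0.93, SE 0.18, adjusted p = 0.000376). With the sort number as a block, Psmd14 also passed between immature and mature B cells, so that 2 genes fell. Without the block Psmd14 had a limma adjusted p of 0.103 (log2 difference -0.87). Equal sort numbers of these populations met the rule used for pairing, but whether they mark a common sort was not tested.

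The Psmd8 fall from immature cells was lost without immature B sort 2 (adjusted p = 0.0796) or mature B sort 1 (0.0638). Within sorts 1 to 3 it was -1.20 (adjusted p = 0.305) and within sorts 8 to 11 -0.56 (adjusted p = 0.759). The difference from pre-BI cells kept its size within these sorts (-1.10 and -0.81) with adjusted p-values of 0.06 and 0.0512. The dimmer Psmd8 probe set, on the b set, did not pass in either comparison (-0.26, adjusted p = 0.97, and -0.37, adjusted p = 0.682).

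Psmd1, a large scaffold subunit of the base, was dim. Pre-BI preparations read 285 to 588 (median 423), all above the noise limit, and mature ones 64.7, 26.3, 54.4, -57.3 and -47.0, all under it. Large pre-BII cells split, with sort 9 at -32.0 and the other preparations at 305 to 655. The fall from pre-BI to mature B cells was at least 1.64-fold (log2 difference on the fitted scale -2.23, SE 0.46, limma adjusted p = 0.000713). Its size depends on how dim values are treated: raising them to the 25th percentile gave -4.50, raising them to the noise limit gave -0.71, and both passed.

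The ubiquitin receptors passed in no comparison. Psmd2, which docks ubiquitin-like domains of shuttle proteins, read 562 to 1496 in pre-BI (median 744) and 738, 744, 873, 1238 and 783 in mature B cells. The 5 population means ran from 871 to 914, and the F test gave an adjusted p of 0.997. The log2 difference between mature B and pre-BI cells was 0.05 (SE 0.25, adjusted p = 0.959). Psmd4, a receptor for ubiquitin chains, read 1350 to 2686 in pre-BI (median 1642) and 1622, 1740.4, 1190.4, 1329.6 and 1801 in mature B cells (log2 difference -0.28, SE 0.33, adjusted p = 0.754).

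**Figure D4:**
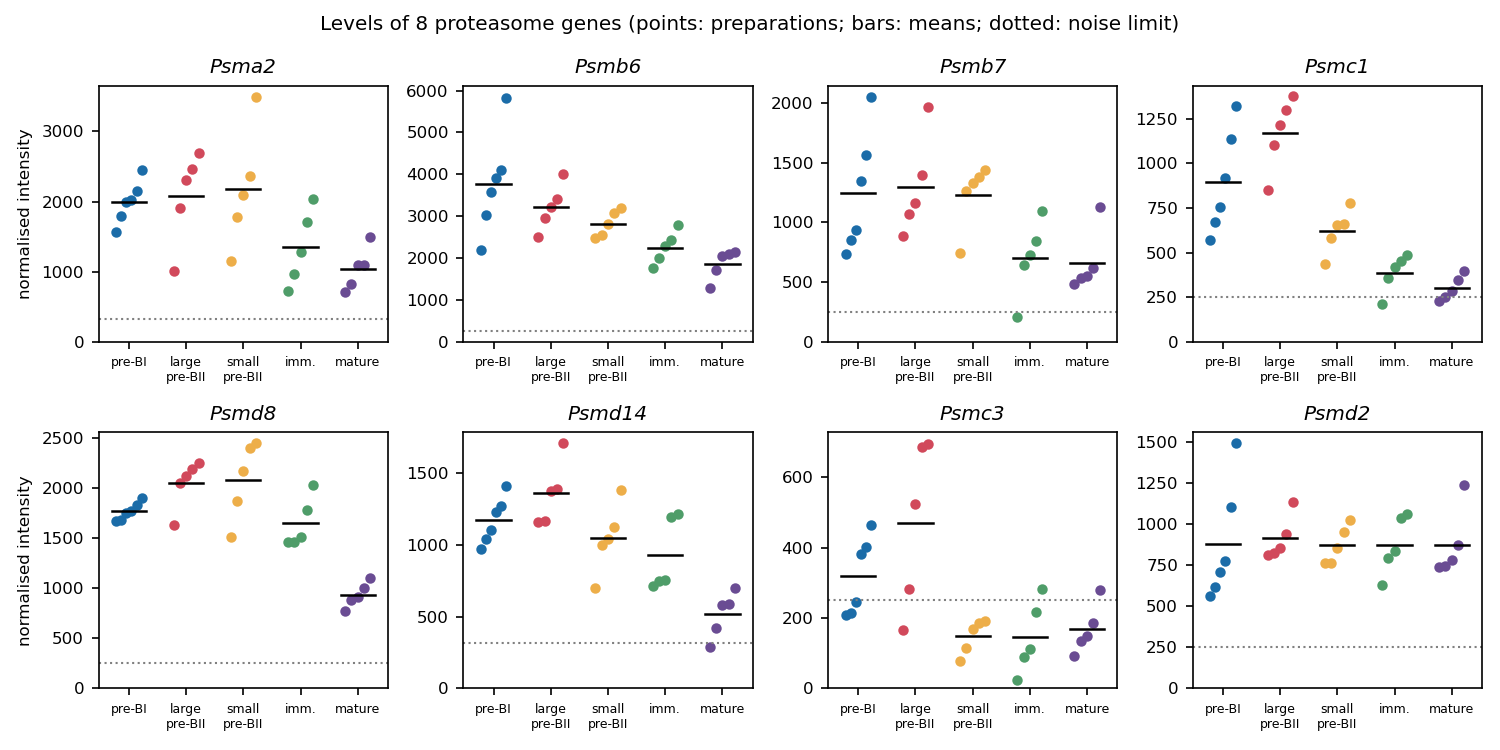
Normalised intensity (linear axes from 0) of 8 proteasome genes in every preparation (points) with the population mean (bars) and the noise limit of the array set (dotted). Psmd8 drops between immature and mature B cells from a mean of 1647 to 933, Psmc1 is highest in large pre-BII cells at 1169, and Psmd2 stays between 871 and 914 in all population means.

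The other 5 non-ATPase genes, Psmd3, Psmd6, Psmd7, Psmd11 and Psmd12, encode lid subunits and passed in no comparison. Their log2 differences between mature B and pre-BI cells ran from -0.59 (Psmd3) to -0.01 (Psmd11), with adjusted p-values of 0.171 and more. The assembly chaperones did not pass either: Psmd5 differed by 0.09 (SE 0.20) and Psmd9 by -1.33 (SE 0.72, adjusted p = 0.326), with all 5 mature Psmd9 values under the noise limit. Psmc3ip, no subunit, fell 2.26-fold (log2 difference -1.28, SE 0.34, limma adjusted p = 0.00905), from 393 to 912 in pre-BI to 199 to 367 in mature B cells; its second probe set, dim throughout, did not pass (-0.26, adjusted p = 0.653). The Psmc3ip call was lost within sorts 1 to 3 (adjusted p = 0.273), within sorts 8 to 11 (0.166) and on values as deposited (0.538).

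No subunit gene passed in the other 2 steps. From pre-BI to large pre-BII cells 1.87% of all tested probe sets changed, and the medians were -0.02 in the core and 0.18 in the regulatory particle (-0.03 in the latter within sorts 8 to 11). From small pre-BII to immature B cells 2.19% changed, and all 12 core genes had differences below 0 (median -0.31, range -0.96 to -0.01) against 52% of all tested probe sets. Without immature B sort 1 this median was -0.15. In the regulatory particle 9 of 14 genes lay below 0 in that step (median -0.04), and the sign of this median depended on single preparations. Without small pre-BII sort 1 it was -0.14 with 12 genes below 0, and without small pre-BII sort 10 it was 0.04 with 5. It was 0.01 without small pre-BII sort 3, 0.03 without immature B sort 1, 0.04 on values as deposited and 0.06 with the sort number as a block. In the step before, from large to small pre-BII cells, the regulatory particle had 12 of 14 genes below 0 (median -0.28) and the core particle 7 of 12 (median -0.10). Among all tested probe sets 45.4% were below 0 in that step, with a median of 0.06. Without small pre-BII sort 1 the regulatory median was -0.12 and the core median 0.01, which it also was without large pre-BII sort 9, and within sorts 8 to 11 the regulatory median was -0.06. Under trimmed-mean scaling, which moved the median of all tested probe sets to 0.15 in this step, the medians were -0.17 and -0.06.

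Factors that work on or beside the proteasome did not all follow the subunits. Of 12 genes for assembly, associated enzymes and regulators, 11 were tested, of which 2 fell (18.2%) and 0 rose between mature B and pre-BI cells, where 6.03% of all tested probe sets fell. Uchl5, a deubiquitinating enzyme of the cap, read 2102 to 3339 in pre-BI (median 2856) and 606, 948, 954, 603 and 518 in mature B cells. The ranges lay far apart (log2 difference -1.99, SE 0.31, limma adjusted p = 1.56e-05), and Uchl5 also fell from large to small pre-BII cells (-1.08, SE 0.33, adjusted p = 0.0458). That second call was lost in 15 of 26 fits without 1 preparation, most clearly without small pre-BII sort 9 (-0.80, adjusted p = 0.192), large pre-BII sort 1 (0.142), small pre-BII sort 3 (0.113) or large pre-BII sort 2 (0.106), and in 6 of 15 other settings. Sem1, a small subunit of the lid outside the name rule, fell from 6555 ± 1846 (SD, n = 6) to 3452 ± 514 (n = 5), a log2 difference of -0.89 (SE 0.22, limma adjusted p = 0.00618). The Sem1 call was lost within sorts 1 to 3 (-0.91, adjusted p = 0.179), within sorts 8 to 11 (-0.81, 0.107) and on values as deposited (-0.66, 0.793). Usp14, the other cap deubiquitinase, changed over the 5 populations (F test, limma adjusted p = 0.0214). It differed by -1.39 between mature B and pre-BI cells without passing (adjusted p = 0.0868). The Usp14 F test call was lost in 4 of 14 other settings (adjusted p up to 0.751). These were within sorts 1 to 3, within sorts 8 to 11, on values as deposited and with no filter on dim probe sets.

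The alternative activator gene Psme4, whose product caps proteasomes in the nucleus, had a pattern of its own. It rose from pre-BI (515 to 1261) to large pre-BII cells (2266 to 3913), by 1.86 on the log2 scale (SE 0.35, limma adjusted p = 0.00139). Small pre-BII preparations read 1997 to 6852, and immature ones fell back to 784 to 2767 (log2 difference -1.55, SE 0.36, limma adjusted p = 0.0118). This fall was lost without immature B sorts 9 (adjusted p = 0.0507) or 11 (0.0651) or small pre-BII sort 3 (0.0504). Both the rise and the fall were lost within sorts 1 to 3 and on values as deposited (limma adjusted p up to 0.345 and 0.75). Mature B cells, at 373 to 1609, overlapped the pre-BI range. Psme1, a subunit of the interferon-inducible activator, did not pass in any comparison, its mean being 895 in pre-BI and 787 in mature B cells.

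The immunoproteasome subunits, which replace catalytic subunits of the constitutive core, passed in neither direction between pre-BI and mature B cells. Psmb8 was lower in the middle of the series: it fell from pre-BI (2266 to 4140) to large pre-BII cells (1221 to 2541) by 0.80 on the log2 scale (SE 0.21, limma adjusted p = 0.032). It rose again by 0.80 from small pre-BII (1373 to 2264) to immature B cells (2679.8 to 3702), with SE 0.22 and limma adjusted p = 0.0393. The fall was lost without pre-BI sorts 1, 9 or 10 or large pre-BII sorts 1, 2, 8 or 9 (adjusted p up to 0.131). The rise was lost without small pre-BII sorts 1, 8 or 9 or any one immature preparation (up to 0.141). Both calls were also lost within sorts 1 to 3, within sorts 8 to 11 and on values as deposited. Of 15 other settings, which include these, the fall was lost in 5 and the rise in 6. In the first of these steps the granulocyte and monocyte marker sum went from 6042 to 19652 in pre-BI to 4174 to 10555 in large pre-BII cells, and in the second from 3942 to 5781 in small pre-BII to 5236 to 7617 in immature B cells. The 9 tested genes of that list did not all move one way. In the first step 7 were lower and 2 higher (Elane 0.7, Mpo 2.21). Those that fell there were Lyz2 (-0.91, SE 0.24, limma adjusted p = 0.0429) and Ngp (-1.16, SE 0.32, adjusted p = 0.0479). In the second step 7 were higher and 2 lower (Elane -1.21, Ltf -0.92). Only Prtn3 passed in it (1.36, SE 0.37, limma adjusted p = 0.0442). Prtn3 was dim, with means of -5.9 in small pre-BII and 285 in immature B cells. The part of such cells in the Psmb8 values was not tested. Psmb9 fell from large to small pre-BII cells (-0.77, SE 0.23, limma adjusted p = 0.0444), a call lost in 10 of 26 fits without 1 preparation (adjusted p up to 0.137, without small pre-BII sort 9) and in 7 of 15 other settings. Between mature B and pre-BI cells the differences were 0.08 for Psmb8, -0.09 for Psmb9 and 0.28 for Psmb10, with adjusted p-values of 0.865 and more.

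**Figure D5:**
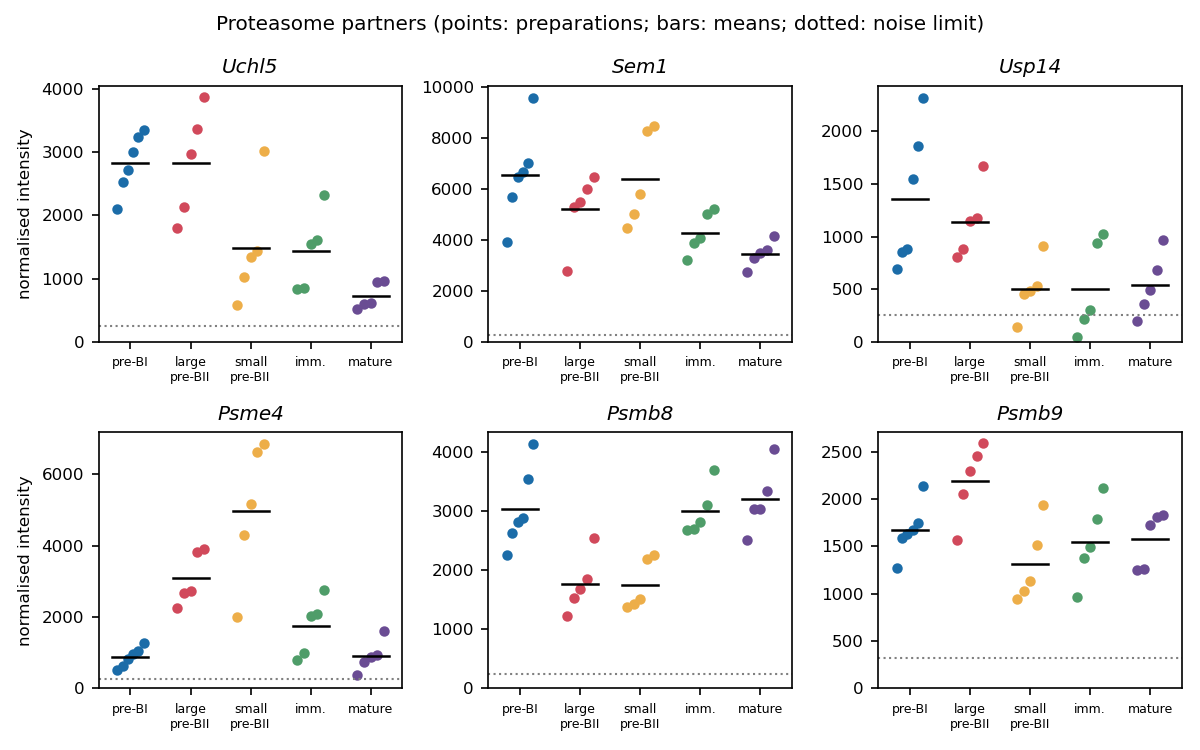
Normalised intensity (linear axes from 0) of 6 genes that work with the proteasome in every preparation (points), with population means (bars) and the noise limit (dotted). Uchl5 declines to a mean of 726 in mature B cells, Psme4 peaks in small pre-BII cells at 4986, and Psmb8 is lowest in large and small pre-BII cells at 1764 and 1755.

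Upstream of the proteasome, 11 genes for ubiquitin carriers, shuttles and their helpers were tested. Of these, the ubiquitin-conjugating enzyme gene Ube2l3 fell between mature B and pre-BI cells (-1.68, SE 0.51, limma adjusted p = 0.0295), with means of 344 and 794. The call was lost without mature B sorts 1 (-1.11, adjusted p = 0.156) or 3 (-1.43, 0.102) or pre-BI sorts 1 (0.0545), 8 (0.0533) or 9 (0.0588). It was also lost within sorts 8 to 11 and with eBayes without a trend (limma adjusted p up to 0.244). The other 10 did not pass in that comparison, so 9.09% of the list changed against 10.8% of all tested probe sets. In the F test 0 of the 11 passed, against 14.8% of all.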

How the data were processed

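Total RNA of sorted B cell precursors was read on 55 arrays of 2 array sets, which were normalised and fitted apart. The deposited values are linear intensities, with 19.7% to 42.3% below 0 on an array. How the authors made these intensities: not given in the sources used here. One array repeated another in all 6584 values and was counted once, so 54 arrays gave 26 preparations; arrays of 1 preparation were averaged. After removal of 110 control probe sets, intensities were quantile-normalised within a set, raised to a floor at the 40th percentile (87.6 and 6.89) and taken to log2. Probe sets above the floor in at least 5 preparations (10229 of 13069) were tested with limma 3.58.1 in R 4.3.3 (lmFit, contrasts, trended eBayes); p-values were adjusted by Benjamini-Hochberg over both sets, threshold 0.05. SEs are those of limma. For folds, values under the noise limit (2 robust SDs, from the negative values) were set to it before log2 means were compared; "at least" marks a dimmer group wholly under it. The number of arrays limits the precision. The script was tested on simulated data.

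Members and gene lists were chosen with earlier results of these data known. Named with values are the leading members of each particle by F test, the catalytic subunits, the receptors Psmd2 and Psmd4, members past the threshold, the smallest and largest differences, and up to 3 called genes of each other list. Equal sort numbers were taken to pair preparations where every pair's deviations correlated above 0.1. This rule was met by mature with immature B cells (0.116 to 0.205), large pre-BII with pre-BI (0.114 to 0.297) and immature B with small pre-BII (0.137 to 0.251). Correlations between unequal sort numbers were not computed, so a common sort cannot be told apart from a common sort period. Alternatives in scaling, floor, filter, blocks, sorts and left-out preparations were run.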

Additional observations from a re-analysis of the deposited data

Results flagged for a closer look

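In 3 of 54 groups of preparations examined, the highest or lowest one stood apart from the rest by Dixon's test at the 95% level; chance gives about 1 in 20 groups. Psmb7 read 746 in small pre-BII sort 3, where the other preparations of that population read 1266 to 1440.4. Psmb7 also read 1131 in mature B sort 9, where the others read 482 to 616. Psmd8 read 1629 in large pre-BII sort 8, where the others read 2050.1 to 2244.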

How the results depend on the processing

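Main counts of called subunit genes were 1 (large to small pre-BII), 1 (immature to mature B), 7 (mature B against pre-BI) and 8 (F test), with 0 in the other steps. The 10 called differences of members and the 9 of partner genes, the latter rerun after the data were seen, changed direction in no alternative run. Medians of 3 steps turned sign. From pre-BI to large pre-BII cells the core median (-0.02) ran from -0.09 to 0.06 with 1 preparation left out and was 0.22 on values as deposited, and the regulatory one (0.18) was -0.03 within sorts 8 to 11. From large to small pre-BII cells the core median (-0.10) was 0.01 without small pre-BII sort 1 or large pre-BII sort 9. From small pre-BII to immature B cells the regulatory median (-0.04) ran from -0.14 to 0.04 with 1 preparation left out. On values as deposited the 4 counts were 0, 0, 3 and 2, and within sorts 1 to 3 they were 0, 0, 0 and 0. Within sorts 8 to 11 the first, second and F test counts were 0, 0 and 3. With a floor at the 25th percentile (1 on the b set, where that percentile is negative) the large to small pre-BII count was 0 and the F test count 5. The large to small pre-BII count was 2 with a floor at the 60th percentile or the noise limit, with no filter, or with no eBayes trend (which gave 5 against pre-BI and 6 in the F test), and 0 with the first array alone. The immature to mature B count was 2 with a floor at the noise limit, with the sort period as a block, or with the first array alone. With the sort number as a replicate block the counts were 2, 2, 10 and 10, and the block changed no other call count. The rule for pairing was not met from large to small pre-BII cells (correlations 0.00324 to 0.243) or for mature B against pre-BI (0.0596 to 0.242). In these comparisons equal sort numbers are shared numbers only. Leaving out 1 preparation gave 0 to 1, 0 to 1, 5 to 8 and 6 to 8. The cause of these shifts was not tested. The noise limit was exceeded by 40% of first-set values and 20.1% of b-set values, which bounds what dim genes such as Psmd1 and Psmc3 can show.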
